A study of Mus musculus with 20 samples.

Results

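The integrated stress response and the unfolded protein response were followed through 10 genes in mouse brains with a severe form of spinal muscular atrophy (SMA). The genes were taken by symbol from a table of 45700 genes, and each symbol had 1 row. They are Atf4, Ddit3, Atf3 and Xbp1, which encode transcription factors, Asns, Chac1, Trib3, Sesn2 and Psat1, which are known targets of ATF4, and Hspa5, the main chaperone of the endoplasmic reticulum (ER). The values are FPKM, fragment counts divided by transcript length and by the mapped fragments of the library, computed by the study's authors in 20 libraries. SMA mice were "Taiwanese" animals (Smn-/-; SMN2tg/0), which have no functional murine Smn gene and carry the human SMN2 transgene. Controls were heterozygous littermates with the same transgene (Smn-/+; SMN2tg/0), and all mice were of the congenic FVB strain and untreated. Whole brains were taken at the early-symptomatic stage, on postnatal day 5, with 2 libraries per genotype and RNA fraction, and at the late-symptomatic stage, on postnatal day 7, with 3. Total cytoplasmic RNA came from all sucrose gradient fractions and polysomal RNA came only from the fractions that hold polysomes.

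Both responses are old and widely shared programmes. In the integrated stress response, kinases that sense different stresses phosphorylate the translation factor eIF2, which lowers protein synthesis in general while mRNAs with upstream open reading frames, such as those of Atf4 and Ddit3, are translated better. ATF4 then drives genes of amino acid supply and redox balance, and Ddit3, which encodes CHOP, follows under prolonged stress. In the unfolded protein response, the ER sensors PERK, IRE1 and ATF6 raise chaperones such as Hspa5 (BiP), and IRE1 splices the Xbp1 mRNA into its active form, which gene-level values cannot resolve.

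The label of the tissue was checked first. The 6 neuronal markers summed to between 1249.59 and 3884.08 FPKM in every library, led by Stmn2 and lowest where Tubb3 was listed at 0, whereas the 6 endothelial markers, led by Cldn5, summed to at most 165.4 FPKM. Blood was in the tissue as well: the erythroid genes, led by Hba-a1, summed to between 1022.26 and 4313.78 FPKM, above the neuronal sum in some libraries, as in control total RNA at day 5 with 2494.88 and 2781.93 against 2186.73 and 2008.22 FPKM. Smn1, the targeted gene, was at 9.71 and 8.92 FPKM in control total RNA at day 5, against 9.55 and 10.09 FPKM in SMA. At day 7 it was at 13.56, 14.09 and 16.7 FPKM in controls and at 11.94, 12.65 and 17.49 FPKM in SMA total RNA. The polysomal libraries overlapped as well, with 8.61 and 11 FPKM in control against 9.65 and 9.34 FPKM in SMA at day 5, and 13.34, 11.94 and 12.46 against 13.1, 14.24 and 13.27 FPKM at day 7. A value over the whole gene does not show which exons the reads came from, so Smn1 does not check the genotype labels here. The Y-linked gene Ddx3y was at 17.45 FPKM or more in some libraries and at 0.5 FPKM or less in the others, so the sexes were not balanced. It was high in 2 of 2 control and 1 of 2 SMA replicates at day 5, and in 1 of 3 control and 2 of 3 SMA replicates at day 7. Calls of the stress genes in SMA against control that changed with a term for Y-linked expression, a fit chosen after seeing the data, are given below. For day 5 alone this term leaves 1 SMA library, so only sizes of differences are given there. Ddx3y was also alike, high or low, in 10 of 10 same-numbered pairs of total and polysomal libraries. Between 426 and 655 of the 15247 genes tested were listed at 0 FPKM in a library, and none of the 10 stress genes was.

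The promoter sequences of 5 of these 10 genes hold elements by which the factors are known to act. A script searched both strands of RefSeq promoter windows (GRCm38.p6, 250 bases before to 50 after the start site) for 3 motifs, and all 10 genes had a window. The C/EBP-ATF response element, which ATF4 binds with a C/EBP partner, was spelled TGATGNAAN and was found in 4 of the 10 genes and in 3.95% of 32851 windows. The ER stress response element, bound by ATF6, was spelled CCAAT, 9 free bases, CCACG, and was found in Hspa5 and in 0.119% of windows. The unfolded protein response element TGACGTG was found in Hspa5 and in 2.01% of windows. The stretches below are shown because Asns, Chac1 and Hspa5 are among the genes called, and capitals mark the motif, which in Chac1 is read on the opposite strand.
Asns, chr6:7693214-7693242, minus strand: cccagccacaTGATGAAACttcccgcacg
Chac1, chr2:119351038-119351066, plus strand: cttccctgccGTTGCATCActcctgccag
Hspa5, chr2:34772020-34772048, plus strand, ER stress response element: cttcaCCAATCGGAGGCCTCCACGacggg
Hspa5, chr2:34771922-34771950, plus strand, unfolded protein response element: gggcgtagcaaTGACGTGagttgcggagg
The motif began 23 bases before the RefSeq start site in Asns and 194 in Chac1, and in Hspa5 the 2 motifs began 65 and 157 bases before it. The gene spans of the deposited table, given below, begin farther upstream in Asns and Hspa5, so that the Asns element and the ER stress response element of Hspa5 lie within them. The C/EBP-ATF element of Atf3 was before its RefSeq start site and that of Trib3 after it. The windows of the other 5 genes held none of these letters, which says nothing about binding elsewhere. A match is a description of the sequence and was not tested as a binding site.

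The 10 genes spanned a wide range of abundance. Averaged over the 20 libraries, Hspa5 was the most abundant at 116 FPKM, followed by Asns at 68.7, Atf4 at 60.9, Psat1 at 46.4, Xbp1 at 30.1 and Ddit3 at 12.4 FPKM. Chac1 at 4.39 and Sesn2 at 3.8 FPKM were low, and Atf3 at 0.569 and Trib3 at 0.470 FPKM fell under the mean of 1 FPKM required of genes in the model, so 8 of the 10 were tested. Differences below are of log2(FPKM + 0.1), SMA minus control, from limma fitted over all 15247 genes, and a gene was called at an unadjusted p under 0.05, the threshold of the study. Genes called at this threshold need not pass an adjustment for multiple tests, so the adjusted p, Benjamini-Hochberg over all genes tested, is given as well. Groups of 2 or 3 libraries often do not overlap by themselves: at day 5 the SMA libraries were above the controls in 25.1% and below them in 22.5% of all genes tested in total RNA, and in 23.9% and 26.6% in polysomal RNA. At day 7 these shares were 7.63% and 7.37% in total and 7.86% and 8.24% in polysomal RNA. At both stages at once they were 3.04% and 2.69% in total and 3.22% and 3.45% in polysomal RNA. Because whole brain was measured, a lower level of an mRNA in each cell and fewer cells that make it cannot be told apart.

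**Figure D1:**
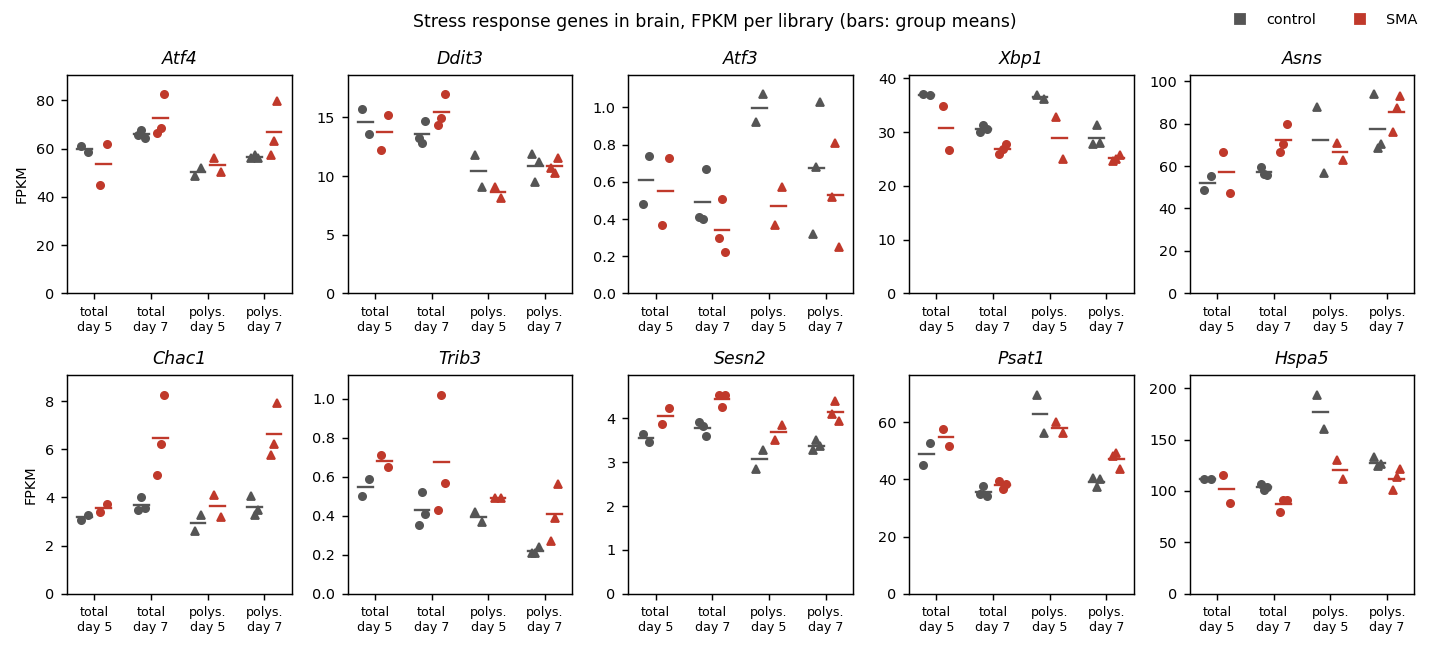
FPKM of the 10 genes in each of the 20 libraries, by RNA fraction and postnatal day; grey points are control, red points SMA, circles total RNA, triangles polysomal RNA, and bars group means. At day 7 the SMA libraries of Chac1 lie above all controls in both fractions, between 4.93 and 8.27 FPKM, and those of Xbp1 lie below all controls.

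With both stages in 1 model, 5 of the 8 genes tested were called in total RNA, where 13.3% of all genes were called. Chac1, Sesn2 and Asns were higher in SMA and Hspa5 and Xbp1 were lower. In polysomal RNA 4 of 8 were called against 16.2% of all genes, with Chac1 and Sesn2 higher and Hspa5 and Xbp1 lower. None of these passed an adjusted p of 0.05, for which the values lay between 0.103 and 0.352. With a term for Y-linked expression the same genes were called, and Psat1 was called as well in total RNA, at 0.12 ± 0.05 (SE, log2 scale, adjusted p = 0.325). The median difference over the 8 genes was 0.10 in total and 0.09 in polysomal RNA, beside 0.01 and 0.00 over all genes tested.

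Of the transcription factors, Atf4 itself was not called in any comparison of SMA with control in the model without a term for sex. Atf4 (chr15:80255184-80257540) was at 60.89 and 58.67 FPKM in control total RNA at day 5 and at 44.84 and 62.09 FPKM in SMA. At day 7 the controls were at 65.69, 67.56 and 64.35 FPKM and SMA at 66.33, 68.65 and 82.43 FPKM. The highest SMA library stood clear of the others while the other SMA values lay within or next to the control range. SMA replicate 3 of day 7, to which that library belongs, was also the highest of the SMA replicates of day 7 for Chac1, Asns and Ddit3 in both fractions, and the only one of them with low Ddx3y. Without it the day 7 difference of Chac1 was 0.58 in total and 0.73 in polysomal RNA and that of Asns in total RNA 0.26 on the log2 scale, all still called, while Sesn2 in total RNA, at 0.21, and Asns over both stages in total RNA, at 0.19, were not called. In polysomal RNA Atf4 was at 48.45 and 51.86 FPKM in controls and 56.07 and 50.26 FPKM in SMA at day 5. At day 7 it was at 56.18, 57.25 and 56.04 FPKM in controls and 57.38, 63.16 and 79.89 FPKM in SMA, so that every SMA library was above every control. The mean difference there was 0.23 ± 0.13 (SE, log2 scale, adjusted p = 0.576), and it was not called. With a term for Y-linked expression Atf4 was called at day 7 in both fractions, at 0.19 ± 0.07 in total (SE, log2 scale, adjusted p = 0.506) and 0.30 ± 0.11 in polysomal RNA (adjusted p = 0.524).

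Ddit3 (chr10:127289696-127311786), which encodes the stress factor CHOP, overlapped between the genotypes in both fractions and at both stages. In total RNA it was at 15.7 and 13.59 FPKM in controls and 12.25 and 15.22 FPKM in SMA at day 5. At day 7 the controls were at 13.25, 12.86 and 14.72 FPKM and SMA at 14.32, 14.99 and 16.96 FPKM. The difference at day 7 was 0.18 ± 0.09 (SE, log2 scale, adjusted p = 0.578), and the groups overlapped. With a replicate block Ddit3 was called there, at 0.18 ± 0.05 (SE, log2 scale, adjusted p = 0.561). For SMA against control this block pairs libraries by replicate number, though the genotypes are different mice and no link by number is stated. In polysomal RNA it was at 11.8 and 9.05 FPKM in controls and 9.11 and 8.17 FPKM in SMA at day 5, and at 11.89, 9.52 and 11.17 against 10.67, 10.29 and 11.55 FPKM at day 7. The groups overlapped again, and the day 7 difference was 0.00 ± 0.10 (SE, log2 scale). The Ddit3 locus overlaps Mars, a more abundant gene on the opposite strand with a mean of 22.0 FPKM, and the counting is not stated to use strand, so reads of the 2 genes may not be separate.

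Atf3, a factor induced by many stresses, was too low for the model. It lay between 0.22 and 0.74 FPKM in all total RNA libraries. In polysomal RNA at day 5 it was at 0.92 and 1.07 FPKM in controls and at 0.37 and 0.57 FPKM in SMA, and at day 7 at 0.32, 0.68 and 1.03 against 0.52, 0.81 and 0.25 FPKM. The SMA libraries were below the controls at day 5, as in 26.6% of all genes tested, and overlapped them at day 7, and over both stages an exact two-sided permutation test within stage gave p = 0.15 for polysomal and p = 0.217 for total RNA.

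Xbp1 (chr11:5520659-5525893), the target of IRE1, was called lower in SMA over both stages and at day 7, and was not called at day 5. In total RNA at day 5 it was at 37.03 and 36.98 FPKM in controls and 34.83 and 26.74 FPKM in SMA. At day 7 it was at 29.98, 31.28 and 30.6 FPKM in controls and 25.96, 26.8 and 27.83 FPKM in SMA. No SMA library reached a control library of its stage. Polysomal RNA showed the same order, with 36.97 and 36.12 against 32.92 and 25.1 FPKM at day 5, and 27.79, 31.26 and 27.92 against 24.62, 24.99 and 25.79 FPKM at day 7. At day 5 the difference was -0.28 ± 0.16 in total (SE, log2 scale, adjusted p = 0.557) and -0.35 ± 0.16 in polysomal RNA (adjusted p = 0.439), and SMA below control is an order that 22.5% and 26.6% of all genes had there. Over both stages Xbp1 fell by 0.22 ± 0.07 on the log2 scale in total RNA (SE, adjusted p = 0.209) and by 0.26 ± 0.08 in polysomal RNA (adjusted p = 0.172). The exact permutation test within stage gave p = 0.0167 in each fraction, the smallest it can give with 120 assignments.

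Among the ATF4 targets, Chac1 (chr2:119351229-119354381), a glutathione-degrading enzyme, differed most over both stages and at day 7. In total RNA it was at 3.06 and 3.29 FPKM in controls and 3.41 and 3.71 FPKM in SMA at day 5. At day 7 the controls were at 3.47, 4.03 and 3.56 FPKM and the SMA libraries at 4.93, 6.22 and 8.27 FPKM. Every SMA library was above every control of its stage, with a wide spread among the SMA libraries of day 7. In polysomal RNA it was at 2.62 and 3.26 FPKM in controls and 4.12 and 3.18 FPKM in SMA at day 5, which overlapped. At day 7 it was at 4.04, 3.26 and 3.46 against 5.77, 6.23 and 7.92 FPKM, with no overlap. At day 7 the difference was 0.77 ± 0.20 in total RNA (SE, log2 scale, adjusted p = 0.367), or 1.70-fold, and 0.86 ± 0.16 in polysomal RNA (adjusted p = 0.214), or 1.82-fold. At day 5 it was 0.16 ± 0.13 and 0.30 ± 0.22, neither of them called. Over both stages the exact permutation test within stage gave p = 0.0167 in total and p = 0.0333 in polysomal RNA.

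Sesn2 (chr4:132492032-132510501), which encodes a sensor of amino acids and oxidative stress upstream of mTORC1, was higher by a smaller amount. In total RNA it was at 3.64 and 3.47 FPKM in controls and 3.87 and 4.24 FPKM in SMA at day 5, and at 3.91, 3.83 and 3.6 against 4.54, 4.25 and 4.54 FPKM at day 7. Polysomal RNA held 2.84 and 3.29 against 3.51 and 3.85 FPKM at day 5, and 3.28, 3.5 and 3.36 against 4.11, 4.4 and 3.95 FPKM at day 7. The genotypes did not overlap in any of the 4 settings. SMA was above control at both stages in 3.04% of all genes tested in total and in 3.22% in polysomal RNA. Over both stages the difference was 0.21 ± 0.05 in total RNA (SE, log2 scale, adjusted p = 0.146) and 0.28 ± 0.06 in polysomal RNA (adjusted p = 0.103). The exact permutation p was 0.0167 in each fraction.

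Asns (chr6:7675169-7693254), asparagine synthetase, was higher in SMA total RNA at day 7. Its values there were 59.53, 56.12 and 55.89 FPKM in controls and 66.48, 70.22 and 79.8 FPKM in SMA, with no overlap and a difference of 0.33 ± 0.08 (SE, log2 scale, adjusted p = 0.326). At day 5 the values were 48.78 and 55.2 against 66.5 and 47.47 FPKM, which overlapped. Polysomal RNA overlapped at both stages, with 87.97 and 56.54 against 70.79 and 62.9 FPKM at day 5, and 93.74, 68.72 and 70.25 against 76.11, 87.52 and 92.86 FPKM at day 7. The polysomal difference at day 7 was 0.15 ± 0.15 (SE, log2 scale), and whether it is smaller than the total RNA difference was tested as the change in translation efficiency (TE), the polysomal difference minus the total RNA difference, below.

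Psat1 (chr19:15904678-15947337), an enzyme of serine synthesis, showed the opposite arrangement at day 7. In polysomal RNA it was at 40.36, 37.23 and 40.04 FPKM in controls and 48.24, 49.39 and 43.54 FPKM in SMA, with no overlap and a difference of 0.26 ± 0.06 (SE, log2 scale, adjusted p = 0.297). In total RNA it was at 34.97, 37.56 and 34.28 against 39.31, 36.52 and 38.28 FPKM, which overlapped. At day 5 it was at 45.09 and 52.62 against 57.73 and 51.63 FPKM in total and at 69.64 and 56.09 against 59.93 and 56.13 FPKM in polysomal RNA, overlapping in both. Trib3, a pseudokinase that restrains ATF4 and CHOP, was under the filter. It was at 0.5 and 0.59 FPKM in controls and 0.71 and 0.65 FPKM in SMA total RNA at day 5, and at 0.35, 0.52 and 0.41 against 0.43, 1.02 and 0.57 FPKM at day 7. In polysomal RNA it was at 0.42 and 0.37 against 0.49 and 0.49 FPKM at day 5, and at 0.21, 0.21 and 0.24 against 0.27, 0.39 and 0.56 FPKM at day 7. Every polysomal SMA library was above every control of its stage, and the exact permutation test within stage gave p = 0.0167 in polysomal and p = 0.05 in total RNA. Adjusted over the 20 such tests (10 genes in 2 fractions), these became 0.0476 and 0.1, and the other tests at 0.0167 also became 0.0476. A value of 0.0167 is the smallest possible and arises when SMA lies wholly above or below control at both stages. In total RNA 3.04% and 2.69% of all genes did so, in polysomal RNA 3.22% and 3.45%. The adjustment covers only these genes, chosen with earlier results known, and counts fractions that may share brains as separate tests. For Chac1 in polysomal RNA the adjusted value was 0.0833. Asns gave an exact permutation p of 0.0667 in total and 0.733 in polysomal RNA (0.121 and 0.772 adjusted), and Psat1 0.0833 and 0.25 (0.128 and 0.312 adjusted).

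Hspa5 (chr2:34771970-34777547), the ER chaperone BiP, was lower in SMA. In total RNA it was at 111.51 and 111.85 FPKM in controls and 115.77 and 88.51 FPKM in SMA at day 5, which overlapped, and at 106.77, 101.12 and 103.91 against 79.88, 91.26 and 90.96 FPKM at day 7. In polysomal RNA it was at 193.68 and 159.97 against 129.67 and 111.32 FPKM at day 5 and at 133.11, 123.99 and 125.98 against 100.95, 113.2 and 121.0 FPKM at day 7. No SMA library reached a control in either polysomal setting, an order found in 26.6% of all genes tested at day 5 and 8.24% at day 7. At day 5 the polysomal difference was -0.55 ± 0.15 (SE, log2 scale, adjusted p = 0.386), and at day 7 it was -0.20 ± 0.08 (adjusted p = 0.461). The day 7 call was lost under most alternatives: at the unadjusted threshold it was kept in 4 of 16. With the term for Y-linked expression the day 7 polysomal call was not kept, at -0.16 ± 0.07 (SE, log2 scale, adjusted p = 0.591). At day 5 that term leaves 1 SMA library, and the polysomal difference was -0.66 on the log2 scale. In total RNA at day 7 Hspa5 fell by 0.25 ± 0.06 (SE, log2 scale, adjusted p = 0.343). Over both stages the exact permutation test gave p = 0.05 in total (0.1 adjusted over the 20 tests) and p = 0.0167 in polysomal RNA.

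Stage by stage, 0 of the 8 genes were called by limma in total RNA at day 5, where 8.25% of all genes were, and Hspa5 alone was called in polysomal RNA, against 12.5% of all genes. At day 7, 5 of 8 were called in total RNA, against 9.54%, and 5 of 8 in polysomal RNA, against 10.7%. Chac1, Sesn2, Hspa5 and Xbp1 were called in both fractions of day 7, Asns in total RNA and Psat1 in polysomal RNA. Day 5 had 2 libraries per group, and there the difference between SMA and control followed transcript length over 13067 protein-coding genes, with a Spearman rho of 0.556 in total and 0.449 in polysomal RNA, against -0.0642 and -0.106 at day 7. Over both stages rho was 0.351 and 0.251. With the trend removed by a length correction the day 5 counts were again 0 and 1, with Hspa5 at -0.54 in polysomal RNA, and 6 and 5 genes were called over both stages in place of 5 and 4. At day 5 only SMA replicate 1 had low Ddx3y, so a term for Y-linked expression leaves 1 SMA library against the controls. The differences in that fit were -0.47 for Xbp1 and -0.34 for Hspa5 in total RNA, and -0.54 and -0.66 in polysomal RNA (log2 scale). For the difference of the SMA effect between stages, 0 of 8 were called in total RNA, against 10.1% of all genes, and 1 of 8, Psat1, in polysomal RNA, against 13.7%, so neither count is above that of all genes. For Psat1 the SMA effect was 0.37 ± 0.14 higher at day 7 (SE, log2 scale, adjusted p = 0.344). For Chac1 it was 0.61 ± 0.28 higher in total (adjusted p = 0.486) and 0.56 ± 0.26 higher in polysomal RNA (adjusted p = 0.388). With the term for Y-linked expression Psat1 was not called, Chac1 was called in both fractions, Asns in total and Hspa5 in polysomal RNA, with adjusted p of 0.487 or more.

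**Figure D2:**
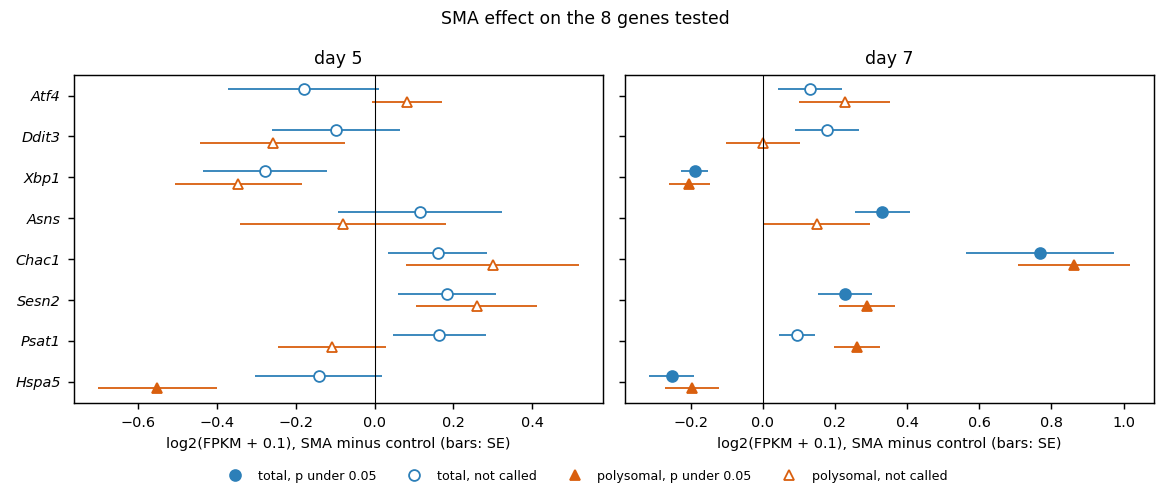
Difference between SMA and control on the log2(FPKM + 0.1) scale for the 8 genes tested, at day 5 (left) and day 7 (right), with a scale for each panel; circles are total and triangles polysomal RNA, bars are standard errors, and filled symbols have an unadjusted p under 0.05. At day 7 Chac1 stands farthest from 0, at 0.77 and 0.86, and Xbp1 and Hspa5 lie below 0 in both fractions.

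Polysome association was compared next, because upstream open reading frames are known to hold ribosomes off the main frame of Atf4 and Ddit3 in unstressed cells. In the Gencode M21 transcript with the longest coding sequence, the leader of Atf4 is 594 bases long and holds 3 upstream start codons, with frames of 36, 3 and 59 codons, 1 of which reaches into the coding sequence. The leader of Ddit3 is 186 bases long and holds 2, with frames of 34 and 31 codons that both end before the coding sequence. Of the other genes, Psat1 has 1 upstream frame that reaches into the coding sequence, Atf3, Asns, Sesn2, Hspa5 and Xbp1 have 1 that ends before it, and Trib3 and Chac1 have none. An upstream start codon is common: 50.7% of 12937 protein-coding genes tested had at least 1.

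Ddit3 was the gene with the lowest polysomal level relative to total RNA among the 8 genes tested, at both stages. In same-numbered libraries its polysomal value was between 0.537 and 0.897 of its total value, below 1 in 10 of 10 pairs. The fraction effect, polysomal minus total, was -0.58 ± 0.12 at day 5 (SE, log2 scale, adjusted p = 0.0271) and -0.41 ± 0.07 at day 7 (adjusted p = 0.00161), with no overlap of the fractions in either genotype. Of the 13101 protein-coding genes tested, 6.18% had a lower value than Ddit3 at day 5 and 5.45% at day 7. The overlap with Mars stands beside these values, and its part in them was not tested.

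Atf4 was below 1 in 9 of 10 pairs, with ratios between 0.796 and 1.25 and a median of 0.868. The exception was 1 SMA pair at day 5, with 44.84 FPKM in total and 56.07 FPKM in polysomal RNA. Its fraction effect was -0.12 ± 0.12 at day 5 (SE, log2 scale, adjusted p = 0.476) and -0.17 ± 0.08 at day 7 (adjusted p = 0.124), and was not called in this fit, which treats the libraries as unpaired. At day 7 all 6 pairs were below 1, and with each pair as a block the effect was called, at -0.17 ± 0.03 (SE, log2 scale, adjusted p = 0.00581). It was also called with the term for Y-linked expression, at an adjusted p of 0.0478. Of protein-coding genes, 30.1% and 15% had a lower value at day 5 and day 7. Trib3, though without an upstream start codon, was below 1 in 10 of 10 pairs, with a median ratio of 0.628 at levels under 1.1 FPKM. Its low values make this ratio coarse.

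At day 5, 2 of the 8 genes were called between fractions, against 38.5% of all genes, and at day 7 6 of 8 were, against 42.2%. Hspa5 was higher in polysomal RNA at both stages, by 0.45 ± 0.14 at day 5 and 0.32 ± 0.05 at day 7 (SE, log2 scale; adjusted p = 0.0629 and 0.000812). At day 7 Asns was higher in polysomal RNA by 0.33 ± 0.09 (SE, log2 scale, adjusted p = 0.0158) and Psat1 by 0.22 ± 0.05 (adjusted p = 0.00529). Sesn2 was lower by 0.13 ± 0.04 (adjusted p = 0.0441) and Xbp1 by 0.09 ± 0.03 (adjusted p = 0.0636). Asns and Hspa5 had a higher effect than 95.4% and 94.7% of protein-coding genes at day 7. Chac1 did not differ between fractions beyond its spread, with an effect of 0.01 ± 0.13 at day 7. These values are medians and means over library pairs and FPKM are relative to each library, so they order genes within a library and do not give the share of an mRNA on polysomes.

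**Figure D3:**
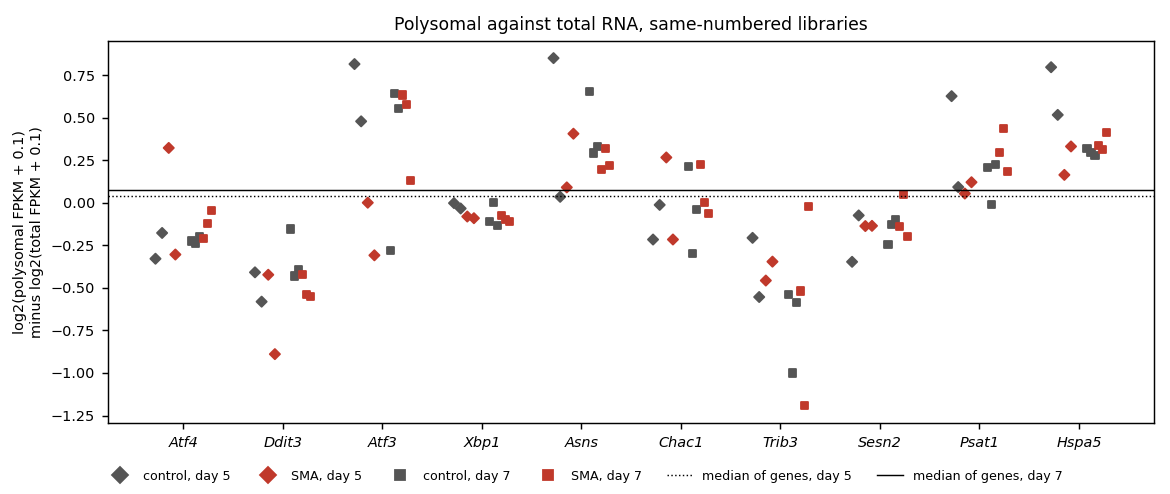
Polysomal minus total RNA on the log2(FPKM + 0.1) scale for same-numbered libraries of the 10 genes; diamonds are day 5, squares day 7, grey control and red SMA, and lines show the median fraction effect of 13101 protein-coding genes. All 10 points of Ddit3 lie below 0, and all 10 points of Asns and of Hspa5 lie above 0.

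No difference in polysome association between the genotypes was called for any of the 8 genes. For the change in TE, 0 of 8 were called at day 5, where 2.32% of all genes were called, and 0 of 8 at day 7, where 2.07% were, by limma at an unadjusted p under 0.05, and 0 of 8 at each stage with each library pair as a block. For Atf4 the change was 0.26 ± 0.23 at day 5 (SE, log2 scale) and 0.10 ± 0.16 at day 7. For Ddit3 it was -0.16 ± 0.25 and -0.18 ± 0.14. For Hspa5 it was -0.41 ± 0.24 at day 5, the largest among the 8 genes, and 0.06 ± 0.10 at day 7. For Psat1 it was 0.17 ± 0.08 at day 7 and for Asns -0.18 ± 0.18, so the differing calls of these 2 genes in the 2 fractions were not shown to be a change in TE. The adjusted p without the block was 1 for all 8 genes at both stages, and these errors do not show that the genotypes were alike.

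Postnatal days 5 and 7 were compared in a fit that pooled the genotypes, and neither genotype was tested alone. In this comparison 49.6% of all genes in total and 54.7% in polysomal RNA were called. The counts of the stress genes are near these shares. In total RNA 5 of 8 were called: Atf4 by 0.29 ± 0.11, Asns by 0.25 ± 0.10 and Chac1 by 0.51 ± 0.17 higher at day 7, and Xbp1 by -0.23 ± 0.07 and Psat1 by -0.49 ± 0.06 lower (SE, log2 scale). In polysomal RNA 6 of 8 were called, with Atf4 at 0.24 ± 0.09, Chac1 at 0.56 ± 0.16 and Sesn2 at 0.16 ± 0.06 higher, and Hspa5 at -0.29 ± 0.10, Xbp1 at -0.26 ± 0.08 and Psat1 at -0.49 ± 0.09 lower. After adjustment Chac1, Xbp1 and Psat1 stayed under 0.05 in both fractions and Hspa5 in polysomal RNA, and the adjusted p of Psat1 was 0.000473 in total and 0.00366 in polysomal RNA. With a replicate block 2 were called in total RNA, Xbp1 and Psat1, and 5 in polysomal RNA, where Atf4 was lost. The stage and any difference in preparation between the stages cannot be told apart.

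Other genes of the pathways were taken from lists and described by their counts, since the lists were chosen with earlier results of these data known. Beside them stand the shares of all genes tested: over both stages 6.95% rose and 6.36% fell in total RNA, and 7.88% rose and 8.3% fell in polysomal RNA. At the start of the response, 16 genes of the eIF2 kinases, eIF2 and its phosphatases were tested. Over both stages 1 rose in total RNA, Eif2ak4, the amino acid sensing kinase GCN2, by 0.15 ± 0.06 (SE, log2 scale, adjusted p = 0.365). In polysomal RNA 1 rose, Eif2ak3, which encodes the ER stress kinase PERK, by 0.11 ± 0.04 (adjusted p = 0.27), and 1, the eIF2 subunit Eif2s1, fell. These counts are near the shares of all genes, and with the length correction neither Eif2ak4 nor Eif2ak3 was called and 0 of 16 rose in either fraction. The list median was 0.01 in total and 0.02 in polysomal RNA, beside 0.01 and 0.00 over all genes tested. At day 7, 2 of 16 rose and 0 fell in total RNA, where 4.84% of all genes rose, Eif2s2, a subunit of eIF2, by 0.19 ± 0.03 (SE, log2 scale, adjusted p = 0.216) and, with overlapping groups, the phosphatase subunit Ppp1r15a. In polysomal RNA 0 rose and 1 fell, the kinase Eif2ak2, with overlapping groups, where 5.38% of all genes fell. At day 5, 0 of 16 were called in total RNA. In polysomal RNA 2 fell, where 6.82% of all genes did, Eif2s1 (-0.41 ± 0.10) and Eif2b1, a subunit of its exchange factor (-0.22 ± 0.07). With the length correction 1 fell there.

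Of 21 tested genes of the other ATF4 and CHOP targets, 18 were above 0 in total RNA over both stages and 1 was called, higher. In polysomal RNA 7 were called higher and 1 lower, and the median was 0.09 beside 0.00 over all genes tested. Of the 7, Slc7a5 and Map1lc3b were listed at 0 in 2 libraries, both of them the control polysomal libraries of day 5, and no fold is given for them. With a replicate block 4 rose and 1 fell. At day 7, 2 of 21 rose in total and 6 in polysomal RNA, and none fell, where 4.84% and 5.35% of all genes rose. The count in total RNA is near that background. Slc7a3, a cationic amino acid transporter, was at 9.74 ± 0.41 FPKM in controls and 14.6 ± 2.56 FPKM in SMA total RNA (SD, n = 3), a difference of 0.57 ± 0.13 (SE, log2 scale), and differed by 0.50 ± 0.14 in polysomal RNA. Eif4ebp1, a repressor of cap-dependent translation, was at 1.95 ± 0.39 against 3.43 ± 0.45 FPKM in polysomal RNA (SD, n = 3), a difference of 0.80 ± 0.19 (SE, log2 scale). The glycine transporter Slc6a9 rose by 0.41 ± 0.10 in polysomal RNA, and Atf5, a related factor whose mRNA also has upstream frames, by 0.30 ± 0.09 in total RNA (SE, log2 scale). The adjusted p of these 4 genes at day 7 lay between 0.289 and 0.416. At day 5, 0 of 21 were called in total RNA. In polysomal RNA 2 rose and none fell there, where 5.65% of all genes rose. This count cannot be told apart from the values of 0 listed for Slc7a5 and Map1lc3b in both control polysomal libraries of day 5. With the length correction 1 fell in total RNA at day 5, and 2 rose and 2 fell in polysomal RNA.

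The 9 enzymes of serine, proline and one-carbon metabolism, partners of Psat1, tended to lie above 0 at day 7, with a median of 0.19 in total and 0.25 in polysomal RNA beside 0.00 over all genes tested. In total RNA 1 of 9 rose and in polysomal RNA 3 of 9, and none fell, where 4.84% and 5.35% of all genes rose. With a term for Y-linked expression, or with a replicate block, 1 of 9 rose in polysomal RNA. Pycr1, which makes proline, rose by 0.63 ± 0.19 in total (SE, log2 scale, adjusted p = 0.415) and 0.64 ± 0.20 in polysomal RNA (adjusted p = 0.375). The mitochondrial folate enzymes Mthfd2 and Shmt2 rose in polysomal RNA by 0.46 ± 0.16 and 0.25 ± 0.10. At day 5, 1 of 9 rose in total and 2 of 9 in polysomal RNA, and none fell, where 4.36% and 5.65% of all genes rose. These counts were 2 and 1 with the length correction. Aldh1l2 rose by 0.67 ± 0.18 in total and 0.41 ± 0.12 in polysomal RNA, and Pycr1 by 0.65 ± 0.14 in polysomal RNA.

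The targets of ATF6 and XBP1 leaned the other way, as Hspa5 and Xbp1 did. Of 29 tested, 8 fell and 2 rose in total RNA over both stages, and 9 fell and 0 rose in polysomal RNA, with 24 of 29 below 0, where 6.36% of all genes fell in total and 8.3% in polysomal RNA. The medians were -0.07 and -0.11 beside 0.01 and 0.00 over all genes tested. Creld2 (-0.32 ± 0.08), Pdia6 (-0.28 ± 0.04) and Calr (-0.24 ± 0.05) fell in total RNA, and Pdia4 (-0.35 ± 0.08), Calr (-0.25 ± 0.06) and Dnajb11 (-0.22 ± 0.05) in polysomal RNA (SE, log2 scale), none of them overlapping between genotypes within a stage. These encode ER folding factors: disulfide isomerases (Pdia4, Pdia6), the calcium-binding chaperone calreticulin (Calr) and a co-chaperone of BiP (Dnajb11). Pdia6 passed the adjustment, with an adjusted p of 0.0221, and was at 44.5 ± 2.17 FPKM in controls and 36.7 ± 1.77 FPKM in SMA total RNA at day 7 (SD, n = 3). At day 7, 5 fell and 1 rose in total RNA, where 4.7% of all genes fell and 4.84% rose, led by Edem2 (-0.38 ± 0.09) and Hyou1 (-0.24 ± 0.07) beside Pdia6. In polysomal RNA 6 fell and 1 rose, where 5.38% of all genes fell and 5.35% rose, with Pdia4 at -0.23 ± 0.06 and Calr at -0.18 ± 0.05, and the one that rose was Herpud1, a factor of ER-associated degradation, by 0.25 ± 0.09. At day 5, where 3.89% of all genes fell in total and 6.82% in polysomal RNA, 4 fell and 1 rose in total RNA, with Sdf2l1 at -0.90 ± 0.11, Creld2 at -0.52 ± 0.10 and Sel1l at 0.33 ± 0.10, and 10 fell and 0 rose in polysomal RNA, with Sdf2l1 at -1.02 ± 0.23, Manf at -0.77 ± 0.24 and Derl2 at -0.66 ± 0.14. With the length correction 8 fell in total and 12 in polysomal RNA over both stages, and 2 and 7 at day 5. With a term for Y-linked expression 9 and 9 fell over both stages and 5 and 3 at day 7.

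Of the 25 genes of this list with a RefSeq promoter window, 8 held the ER stress response element, against the 0.119% of all windows given above. The windows of Calr and Pdia6, which fell, and of Herpud1, which rose, are shown as examples of the elements found. The windows of Edem1, Edem2, Pdia4, Dnajb11 and Pdia3, which also fell in a fraction at day 7, held none of the 3 motifs.
Calr, chr8:84847070-84847098, minus strand, ER stress response element read on the opposite strand: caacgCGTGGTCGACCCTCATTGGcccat
Pdia6, chr12:17266486-17266514, plus strand, ER stress response element: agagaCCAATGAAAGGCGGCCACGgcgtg
Herpud1, chr8:94386306-94386334, plus strand, C/EBP-ATF response element read on the opposite strand: accacggcggGTTGCATCAgcccgcaccc
The element of Herpud1 has the same 9 letters as that of Chac1, GTTGCATCA in the direction of the gene. These 3 genes were picked with their values in view, and whether the element goes with the direction was not tested.

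Of the 8 genes of the sensors ATF6 and IRE1 and their processing, 1 rose in total and 2 in polysomal RNA over both stages, and none fell, where 6.95% and 7.88% of all genes rose. The count of 1 of 8 in total RNA is near that background. Mbtps1, the protease that cleaves ATF6, rose by 0.13 ± 0.03 in total and 0.20 ± 0.06 in polysomal RNA (SE, log2 scale). At day 7 it rose by 0.09 ± 0.03 and 0.14 ± 0.05, and at day 5 Mbtps1 (0.19 ± 0.06) and Ern1, which encodes IRE1 (0.46 ± 0.14), rose in total RNA and Creb3l1 (0.60 ± 0.15) in polysomal RNA. The day 7 counts were 1 of 8 in each fraction, where 4.84% and 5.35% of all genes rose. The day 5 counts were 2 and 1 of 8, where 4.36% and 5.65% of all genes rose. With the length correction 0 of 8 were called in total RNA over both stages and at either day. With a term for Y-linked expression 0 were called in total RNA at day 7. Of 11 tested genes listed for upstream open reading frames, 1 rose in each fraction over both stages, Eprs by 0.29 ± 0.08 in total RNA and Atf5, with overlapping groups, in polysomal RNA. For the change in TE, 0 of the 11 were called at day 5 and 1, Eprs, was lower at day 7, by 0.24 ± 0.08 on the log2 scale (SE, adjusted p = 1). The Gencode M21 leaders of Eprs (154 bases) and Oaz1 (74 bases) held 0 upstream ATG codons. The scan thus found no upstream frame in these genes, although both are on the list. At day 7, 3 of the 11 rose in total RNA, Eprs by 0.23 ± 0.06, Atf5 and, with overlapping groups, Ppp1r15a, and 1, Atf5, rose in polysomal RNA, and none fell, where 4.84% and 5.35% of all genes rose. At day 5, 1 of 11 fell in each fraction and none rose, where 3.89% and 6.82% of all genes fell, Ifrd1 (-0.27 ± 0.05) in total and Oaz1 (-0.56 ± 0.17) in polysomal RNA. Under the term for Y-linked expression 2 of 11 rose in total RNA at day 7.

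**Figure D4:**
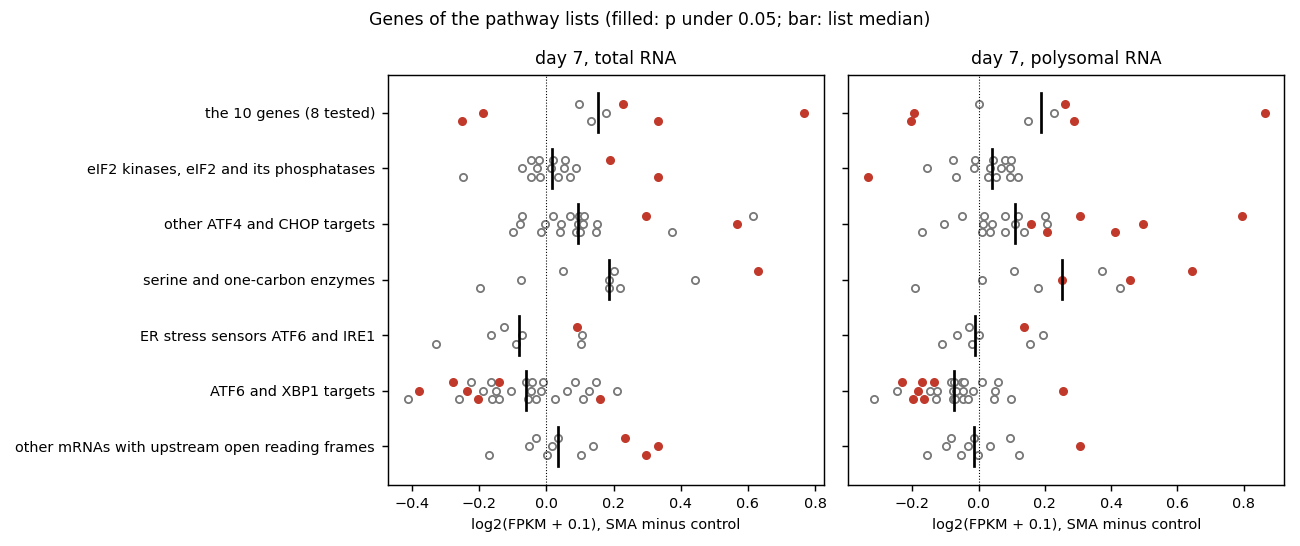
Difference between SMA and control at day 7 for each tested gene of 7 lists, in total RNA (left) and polysomal RNA (right), on the log2(FPKM + 0.1) scale; filled red points have an unadjusted p under 0.05 and black bars are list medians. The serine and one-carbon enzymes have medians of 0.19 and 0.25, and the ATF6 and XBP1 targets have medians of -0.06 and -0.08.

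The ER folding genes also moved between fractions. Of the 29, 17 were higher in polysomal than in total RNA at day 5 and 18 at day 7, and none was lower, where 20% and 26.4% of all genes were higher, with medians of 0.28 and 0.20 beside 0.02 and 0.05 over all genes tested. Hsp90b1 (0.52 ± 0.07), Pdia3 (0.40 ± 0.03) and Calr (0.34 ± 0.04) differed at day 7, and Sdf2l1 (0.74 ± 0.12), Manf (0.72 ± 0.16) and Sec61b (0.70 ± 0.16) at day 5 (SE, log2 scale). Amd1, an enzyme of polyamine synthesis whose mRNA has a known upstream frame, was lower by 0.88 ± 0.10 at day 5 and 0.98 ± 0.05 at day 7 (adjusted p = 0.00648 and 2.41e-07), a larger fraction effect than that of Ddit3.

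Markers of vessel cells moved with the genotype beside all of these results. All 6 endothelial markers were called lower in SMA in both fractions over both stages, with Tek at -1.69, Cldn5 at -1.16, Slco1c1 at -0.83, Cdh5 at -0.79, Pecam1 at -0.57 and Esam at -0.51 in total RNA on the log2 scale. Their sum was at 90.94 and 98.91 FPKM in controls and 41.55 and 48.19 FPKM in SMA total RNA at day 5, and at 63.25, 71.73 and 80.31 against 37.94, 38.08 and 42.15 FPKM at day 7. In polysomal RNA it was at 118.43 and 165.4 against 49.65 and 68.41 FPKM, and at 84.59, 86.08 and 94.25 against 44.62, 46.19 and 53.29 FPKM. No SMA library reached a control, and no endothelial marker was listed at 0. Of the 6 pericyte markers 5 were called lower in both fractions over both stages, Rgs5, the most abundant, Higd1b, Kcnj8, Abcc9 and Pdgfrb. Of all genes 6.36% fell in total and 8.3% in polysomal RNA. The other marker, Notch3, was not called, and its difference was above 0 in total and below 0 in polysomal RNA. Their sum was at 52.45, 53.13 and 56.14 FPKM in controls and 25.46, 25.85 and 29.21 FPKM in SMA total RNA at day 7, and at 52.08 and 54.56 against 33.13 and 33.41 FPKM at day 5. In polysomal RNA the pericyte sum was at 63.64 and 71.11 against 37.13 and 39.3 FPKM at day 5, and at 62.94, 65.03 and 68.56 against 28.87, 29.78 and 35.37 FPKM at day 7.

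Other cell types moved less or at 1 stage. The choroid plexus markers, led by Ttr, summed to 380.67, 409.99 and 410.73 FPKM in controls and 645.27, 735.44 and 824.02 FPKM in SMA total RNA at day 7, and to 473.11, 528.48 and 585.19 against 840.3, 1010.69 and 1122.57 FPKM in polysomal RNA. At day 5 the choroid plexus sums overlapped, with 730.98 and 778.26 against 416.14 and 805.85 FPKM in total RNA. Ttr, Clic6, Folr1 and Otx2 were called higher at day 7 in both fractions, and none was at day 5. Of the microglial markers C1qa and C1qb were higher at day 7 in both fractions, Aif1 in total RNA, and P2ry12 was lower in total RNA at both stages and in polysomal RNA at day 5. The erythroid genes Hba-a2 and Hbb-bt were lower over both stages in both fractions. In astrocytes, Slc1a2 and Slc1a3 were higher in total RNA and Aqp4 lower in polysomal RNA over both stages, and in total RNA Map2 and Pdgfra were higher and Olig1 was lower. The neuronal marker Tubb3 was listed at 0 in the 2 control polysomal libraries of day 5. The part of these cell types in the differences of the stress genes was not tested.

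**Figure D5:**
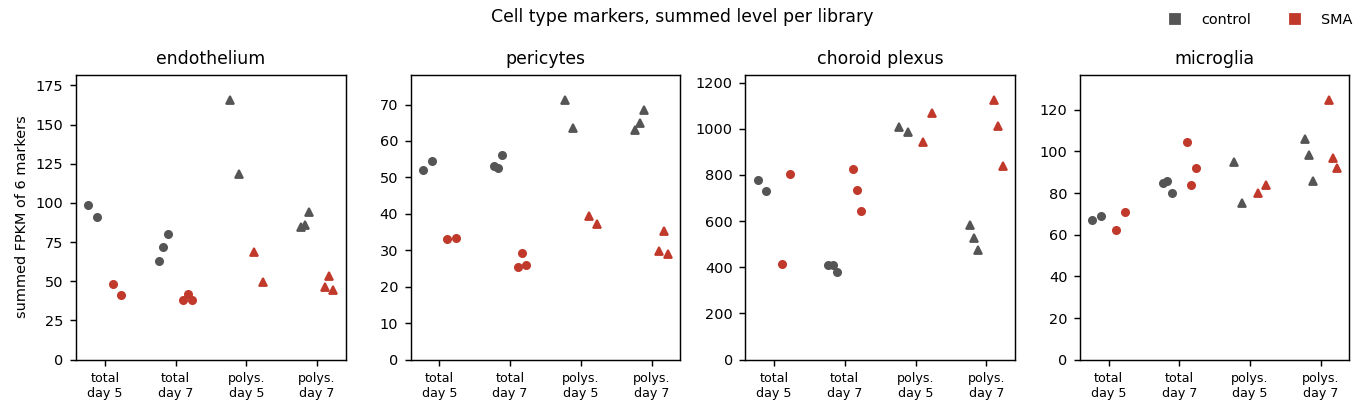
Summed FPKM of 6 markers each of endothelium, pericytes, choroid plexus and microglia in every library, by RNA fraction and day; grey is control, red is SMA. Endothelial and pericyte sums of SMA libraries lie below those of all controls of their fraction and day, and the choroid plexus sum is higher in SMA at day 7 in both fractions.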

How the data were processed

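FPKM values of 45700 genes in 20 brain libraries were used as the authors deposited them. Per the study's methods and the submitters' processing notes, 100 bp reads of a stranded total RNA kit were aligned to GRCm38.p4 with TopHat 2.0.14 guided by Gencode M6, and Cufflinks 2.2.1 computed FPKM with default settings. Whether the counting used strand, and whether same-numbered total and polysomal libraries came from 1 brain, is not given in the sources used here. The deposited FPKM carry no counts, so the depth behind a value is unknown and no interval or floor was set. Libraries of a group, each described as from a brain, served as replicates.

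Here log2(FPKM + 0.1) of genes averaging 1 FPKM or more, 15247 in all, was fitted with limma 3.58.1 in R 4.3.3 (lmFit, eBayes with trend) in 14 comparisons. Single genes were also tested over both stages by an exact two-sided permutation within stage; within 1 stage it could not go below p = 0.333 at day 5 or 0.1 at day 7. The study's CuffDiff and Xtail need alignments or counts. The method was tested on simulated data. Named in the text are the 10 genes, up to 3 called genes per list and comparison with the largest difference and no overlap of groups, and called markers. Outside this rule, genes behind small counts (Eif2s1, Atf5, Ppp1r15a and Eif2ak2, with overlapping groups), Ddx3y and shown promoters were named with their values seen. The genes, lists and tests were chosen with earlier results of these data known. Alternatives covered the pseudocount, filter, scaling, transcript length (Gencode M21), model, replicate block, each replicate and, added after seeing the data, a term for Y-linked expression. Gene positions are 1-based on GRCm38.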

Additional observations from a re-analysis of the deposited data

Results flagged for a closer look

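The difference between SMA and control was compared between the 2 stages by a test of the difference itself, and Psat1 in polysomal RNA passed an unadjusted p under 0.05. Its difference was 0.369 higher at day 7 than at day 5 on the log2 scale (SE 0.141, adjusted p = 0.344 over all genes, limma), from -0.11 ± 0.14 at day 5 to 0.26 ± 0.06 at day 7. This was 1 call among the 8 genes tested, where 13.7% of all genes were called, so the count is no more than the share of all genes and is no result about these genes. All 3 SMA libraries of day 7 were above the controls and the day 5 groups overlapped. At the unadjusted threshold the call was lost in 7 of 20 alternatives, among them a term for Y-linked expression, with 0.326, the correction for transcript length, with 0.273, and a fit that left out 1 control of day 5, with 0.213.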

How the results depend on the processing

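Counts below are of the 8 stress genes called, or of all 10 without the filter. With an adjusted p under 0.05 in place of the unadjusted one, 0 were called in each comparison of SMA with control in place of 5 and 4 (both stages, total and polysomal), 1 (day 5 polysomal), 5 and 5 (day 7), 1 in place of 2 between fractions at day 5, 3 in place of 5 between days in total RNA, and 0 in place of 1, Psat1, for the difference between stages in polysomal RNA. With 1 model over all libraries the counts were 1 in place of 0 and 3 in place of 1 at day 5, 3 and 3 in place of 5 and 5 at day 7, 1 in place of 0 for TE at day 5, 5 in place of 2 between fractions at day 5 and 1 in place of 0 for the difference between stages in total RNA. Between fractions at day 5, 4 of the 10 genes were called without the filter, Trib3 among them, and 4 of 8 with equal library medians, in place of 2. For the difference between stages, equal medians and a filter above 0 in every library each gave 1 in place of 0 (total) and 2 in place of 1 (polysomal).

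With each replicate left out in turn, the SMA counts ranged from 3 to 6 and 4 to 5 over both stages (total and polysomal), 0 to 2 and 0 to 1 at day 5, and 4 to 5 and 3 to 5 at day 7. They ranged from 0 to 1 for TE at each stage, 1 to 3 and 5 to 6 between fractions, 4 to 5 and 5 to 6 between days, and 0 to 3 and 0 to 4 for the difference between stages. Where this left 1 library in a group, that library was assumed to vary like the others. The count of 3 over both stages in total RNA came without control late replicate 1, and the 3 at day 7 in polysomal RNA without SMA late replicate 2.

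With a replicate block the counts were 4 and 4 over both stages, 0 and 1 at day 5, 5 and 4 at day 7, 0 and 0 for TE, 2 and 7 between fractions, 2 (in place of 5) and 5 between days, and 0 and 2 (in place of 1) for the difference between stages. The 5 in total RNA at day 7 held Ddit3 in place of Sesn2. The labels do not say whether same-numbered libraries share a brain. Over all genes, deviations from group means correlated between -0.039 and 0.109 for total and polysomal libraries and between -0.09 and 0.033 for control and SMA, but Ddx3y was alike in 10 of 10 same-numbered total and polysomal pairs, a hint from the data, not the design. A term for Y-linked expression (Ddx3y at or above 1 FPKM) was chosen after seeing the data. With it the counts were 6 and 4 over both stages and 6 and 5 at day 7. They were 0 and 0 for TE, 2 and 7 between fractions and 5 and 6 between days. For the difference between stages they were 2 in place of 0 and 2 in place of 1. No count is given for day 5 alone, where this term leaves 1 SMA library. The counts of the other lists under this term, the block and the length correction were also computed after seeing the data.

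Of 40 calls of single stress genes, 27 were lost at an adjusted p under 0.05, all 4 of Chac1 in SMA against control among them. At the unadjusted threshold, over 718 alternative fits, 79 calls were lost and 0 reversed, and 22 calls were lost in none of these fits, those 4 of Chac1 among them. Asns over both stages in total RNA was lost in 10 of 20 (0.19 to 0.34 on the log2 scale), Sesn2 at day 7 in total RNA in 6 of 16 and Hspa5 at day 7 in polysomal RNA in 12 of 16. Calls over all genes moved without the filter (3207 in place of 2029 over both stages in total RNA, 2907 in place of 1258 and 3539 in place of 1902 at day 5), with 1 model at day 5 (3013 and 3814), with 1 replicate left out at day 5 (401 to 4319 in total RNA, the highest without SMA early replicate 2, and 791 to 3023 in polysomal RNA), and at an adjusted p under 0.05 (95 and 121 over both stages, 17 and 14 at day 7). With no counts, the precision of low genes such as Trib3 and Atf3 is unknown.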
